A study of Drosophila melanogaster with 13 samples.

Results

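The histone gene cluster of Drosophila melanogaster was examined as the peaks of all 9 deposited ChIP-seq peak lists that overlap the 200 kb from 21.4 to 21.6 Mb of chromosome arm 2L (Release 5, dm3). In all, 567 of 83082 peaks met this rule. In egg chambers of stages 12-13 the library labelled SUUR had 302, that labelled Cdc45 had 57 and IgG had 72. In egg chambers of stage 10 the counts were 10, 113 and 10 in the same order. Salivary glands added 1 peak each for gamma-H2Av in the SuUR mutant, gamma-H2Av in OrR and IgG in OrR.

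The cluster is a tandem array in which a unit of about 5 kb is repeated. Each unit carries the replication-dependent genes of the linker histone H1 and of the core histones H2A, H2B, H3 and H4, whose products package newly made DNA and whose transcription is tied to S phase. In the gene table of RefSeq (Release 6), used here only for names and gene order, the cluster holds 23 His1, 23 His2B, 20 His2A, 22 His4 and 23 His3 genes and 8 histone pseudogenes. The order His1, His2B, His2A, His4, His3 occurs 19 times in it. SUUR is a chromatin protein that slows replication forks and keeps late regions underreplicated in polytene cells. Cdc45 is a component of the helicase that moves with the fork, and gamma-H2Av is the phosphorylated histone variant that marks DNA breaks.

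Egg chambers came from OrR, a wild-type strain, with 600 egg chambers per ChIP fixed in 2% formaldehyde. Stage 10 was taken by itself, and stages 12 and 13 were pooled. IgG ("GP IgG" in the labels) was the control antibody there. Glands came from wandering larvae of a SuUR mutant, whose allele the labels do not give, and of OrR, with rabbit IgG in OrR only. Each group is 1 library without a replicate, so no test between groups could be made and every difference below is between single libraries. Egg chambers hold follicle cells, nurse cells and an oocyte, so more bound cells and more binding per cell cannot be told apart.

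For all 4 egg chamber ChIP libraries the run name in the file header carries the other antibody than the label. The label is used throughout, and a direction between the antibodies carries this conflict. After removal of duplicates, stages 12-13 had 4824942 tags labelled SUUR, 6942374 labelled Cdc45 and 2592149 of IgG. Stage 10 had 353742, 8265341 and 3891175 tags in the same order. Gland libraries had 15996251 to 19208769 tags. The stage 10 library labelled SUUR is the shallowest. Its list held 3449 peaks on the arms, against 3183 in that of stages 12-13. In the whole genome it held fewer, 5147 against 9875.

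**Figure D1:**
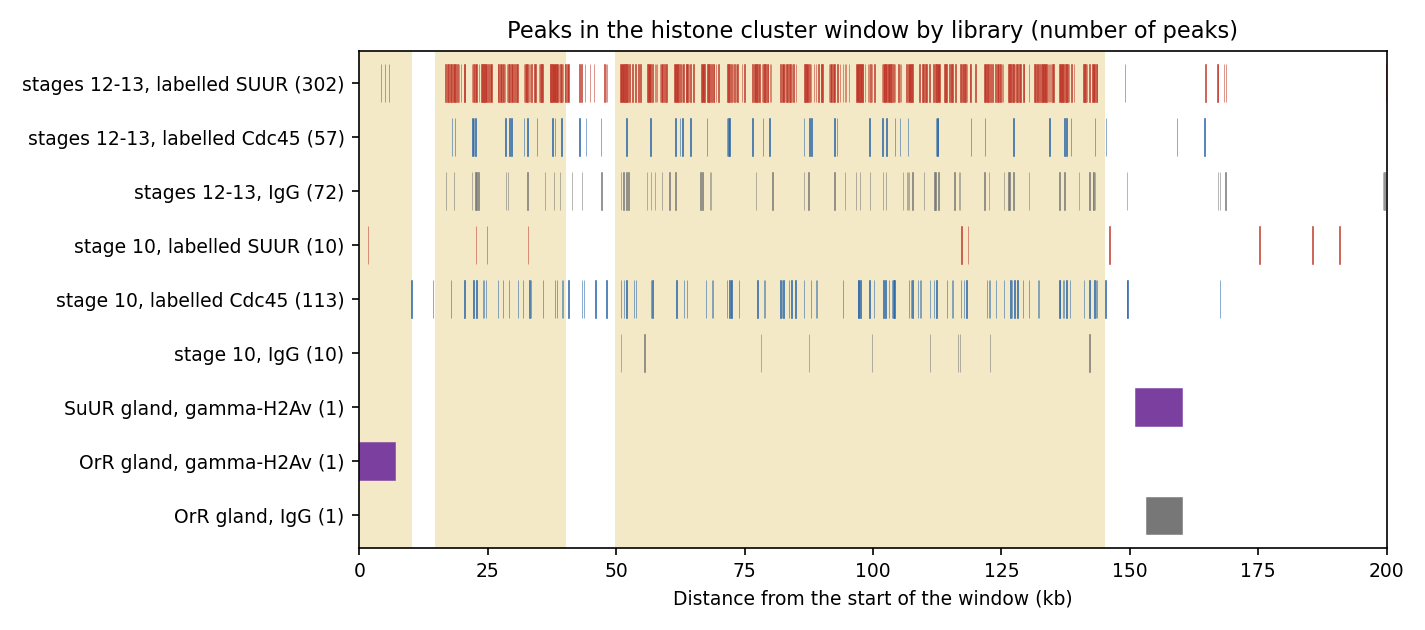
Peaks in the window of the histone cluster, drawn to scale by library, with kb from the start of the window on the horizontal axis and the number of peaks in brackets. Shaded stretches mark a raised local background. Peaks of the egg chamber libraries fill 2 large shaded blocks most densely at stages 12-13 in the library labelled SUUR, while the gland peaks lie outside those blocks (the OrR gamma-H2Av peak runs on below the window).

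At stages 12-13 the library labelled SUUR covered far more of the cluster than the others. Its peaks covered 43.6 kb, or 21.8% of the window, against 5.27 kb (2.64%) for the library labelled Cdc45 and 4.69 kb (2.35%) for IgG. The ratio to IgG was 9.29 for the library labelled SUUR, from 1.86 times as many tags, and 1.12 for the one labelled Cdc45, from 2.68 times as many. Among 1184 windows of 200 kb along the 5 major arms, stepped by 100 kb, this one ranked 4 by covered length in the list labelled SUUR, 49 in that labelled Cdc45 and 4 in that of IgG. The cluster thus stood high in the control list too. Of all bases under peaks on the arms, it held 9.44% labelled SUUR, 0.862% labelled Cdc45 and 4.12% in IgG. With each egg chamber list limited to an equal number of peaks by p-value, coverage was 15.0% labelled SUUR, 0.534% labelled Cdc45 and 1.51% for IgG, so the library labelled Cdc45 then lay below IgG.

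Stage 10 gave another order. The library labelled SUUR covered 0.579 kb, the one labelled Cdc45 8.05 kb and IgG 0.644 kb. The window ranked 119, 37 and 17 of 1184 in the same order. The library labelled Cdc45 had 113 peaks, against 10 of IgG, from 2.12 times as many tags. Over all arms, however, its list held 27.8 times as many peaks as that of IgG. The ratio of 11.3 in this window was below that of the arms. In the whole genome the lists held 24764 peaks labelled Cdc45 and 5551 of IgG, a smaller ratio than in the window. With an equal number of peaks per list, coverage labelled Cdc45 was 0.311%, against 0.181% for IgG. The library labelled SUUR had 0.0909 times the tags of IgG, and the part of depth in its coverage was not tested. Its ratio of peaks to IgG was 1.0 in the window, against 13.9 over all arms. In the whole genome the lists were close in number, with 5147 peaks labelled SUUR and 5551 of IgG. With an equal number of peaks per list, coverage labelled SUUR was 0.29%, above the 0.181% of IgG.

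The peaks of the window were higher by median pileup than those on the arms outside in each of the 6 egg chamber lists, IgG included. The authors' pileup is the number of tags stacked at a peak's summit, with each tag set to the fragment length. At stages 12-13 the lowest, median and highest pileup of the peaks labelled SUUR was 9, 17 and 28. For those labelled Cdc45 it was 11, 20 and 36, and for IgG 6, 10 and 13. The medians on the arms outside were 10, 14 and 7. In the window the medians per 1e+06 tags were 3.52 labelled SUUR, 2.88 labelled Cdc45 and 3.86 for IgG. By this median the IgG peaks were no lower than the ChIP peaks. On the arms outside these medians were 2.07, 2.02 and 2.70, so IgG was the highest there too, and the part of depth was not tested. The authors' fold over the local background had medians of 3.27, 2.58 and 3.67 in the same order, against 3.48, 3.19 and 4.14 on the arms outside, so by fold the window was the lower. At stage 10 these medians were 3.63, 2.68 and 3.09, against 3.44, 3.70 and 3.54 outside. There the window was the higher by fold labelled SUUR and the lower labelled Cdc45 and in IgG. At stage 10 the pileup ranged over 2 to 5 labelled SUUR (median 4), 10 to 39 labelled Cdc45 (median 18) and 9 to 21 for IgG (median 13.5), against medians of 3, 12 and 11 on the arms outside. As pileup per 1e+06 tags these medians were 11.3, 2.18 and 3.47, and in the shallow library labelled SUUR a single tag weighs far more than in the others. The fragment length the caller used was 36 to 58 bp, which also enters the pileup. Tags were 44 bp long, so this length was below that of a tag in IgG of stages 12-13 (41 bp) and labelled Cdc45 at stage 10 (36 bp).

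**Figure D2:**
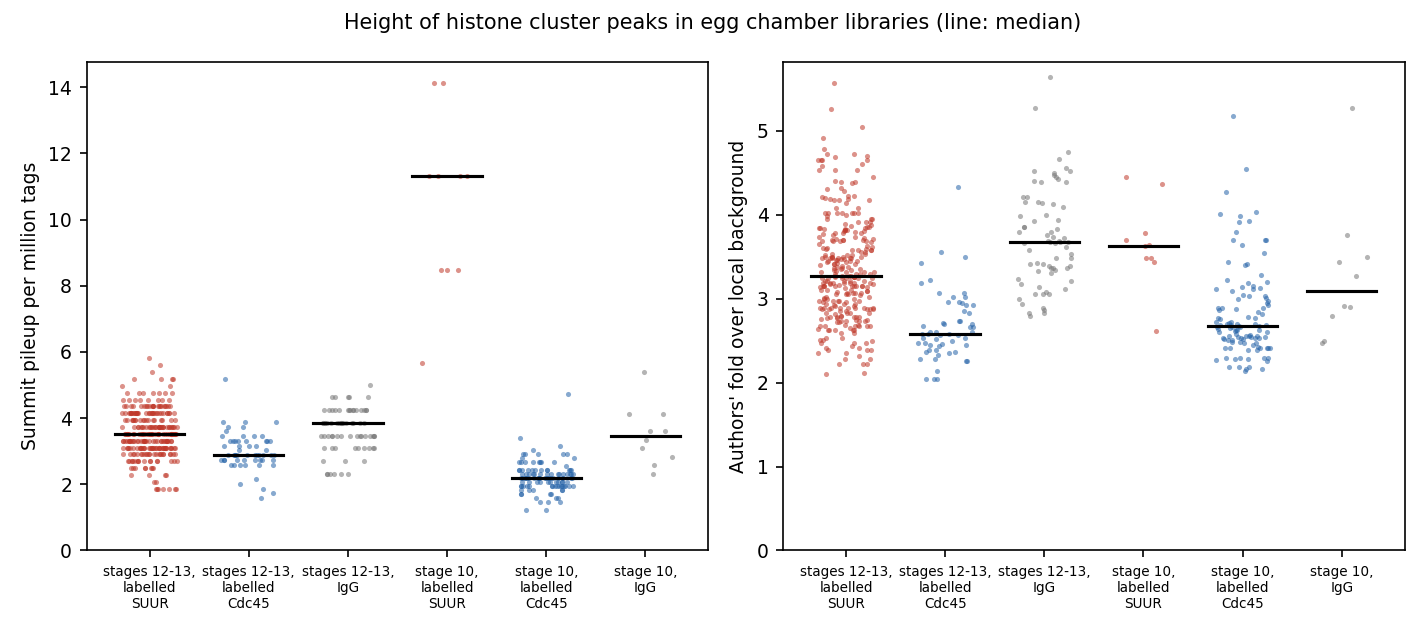
Summit pileup per 1e+06 tags (left) and the authors' fold over local background (right) for every peak of the window in the 6 egg chamber libraries, with a line at each median. At stages 12-13 the median pileup per 1e+06 tags of the peaks labelled SUUR, 3.52, lies below that of IgG, 3.86, and the 2 sets of points overlap.

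Peaks labelled SUUR at stages 12-13 were also the widest of that stage. They had a median width of 107.5 bp and reached 692 bp, against a fragment length of 46 bp. Those labelled Cdc45 had a median of 84 bp and reached 199 bp (fragment length 58 bp), and those of IgG had 60 bp and reached 217 bp (41 bp). In units of the fragment length the medians were 2.34, 1.45 and 1.46. On the arms outside the window the median peak labelled SUUR was narrower, 76 bp, while that labelled Cdc45 was wider, 96 bp, and that of IgG was also 60 bp. At stage 10 the median widths were 49, 58 and 59 bp labelled SUUR, labelled Cdc45 and for IgG. In the library labelled SUUR 49 bp is also the fragment length, the narrowest a peak can be.

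The same sites were then compared. Of the 72 IgG peaks of stages 12-13, 49 (68.1%, Wilson 95% interval 56.6 to 77.7%, counting error only) overlapped a peak labelled SUUR, against 42.6% of all IgG peaks in the genome. The share on the arms outside the window was 28.4%. Peaks labelled SUUR covered 34.9% of the 2 large blocks in which most members lie. At these 49 sites the median pileup per 1e+06 tags was 3.73 labelled SUUR and 3.86 for IgG, and the peak labelled SUUR was the higher in 28 and the wider in 46. By fold it was the higher in 22, with medians of 3.45 labelled SUUR and 3.67 for IgG. Only 16 IgG peaks (22.2%, 14.2 to 33.1%) overlapped one labelled Cdc45, against 33.6% in the genome and 36.7% on the arms outside. At 2 of these 16 the peak labelled Cdc45 was the higher per 1e+06 tags. All sites compared in height had been called in IgG and in the ChIP list, which differ in depth. These counts therefore cannot be read apart from the calling limits.

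Seen from the ChIP side, 47 of the 302 peaks labelled SUUR (15.6%, 11.9 to 20.1%) overlapped an IgG peak, against 30.3% of that list in the genome and 13.2% on the arms outside the window. Of the 57 peaks labelled Cdc45, 16 did (28.1%, 18.1 to 40.8%), against 16.0% in the genome and 10.3% on the arms outside. With peaks over IgG left out, coverage of the window was 15.7% labelled SUUR and 1.75% labelled Cdc45. At stage 10, none of the 10 peaks labelled SUUR and 4 of the 113 labelled Cdc45 (3.54%, 1.39 to 8.75%) overlapped IgG, against 9.87% and 13.2% of these lists in the genome and 1.89% and 1.38% on the arms outside. Of the 10 IgG peaks of stage 10, none overlapped a peak labelled SUUR and 4 overlapped one labelled Cdc45, against 8.74% and 60.4% of that list. The shares on the arms outside were 25.9% and 57.3%.

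The 2 ChIP libraries of stages 12-13 met at most sites of the smaller list. Of the 57 peaks labelled Cdc45, 46 (80.7%, 68.7 to 88.9%) overlapped one labelled SUUR, against 27.1% of that list in the genome. On the arms outside the window 20.6% did. Peaks labelled SUUR covered 34.9% of the 2 large blocks, and the part of this dense cover in the overlap was not tested. Of the 302 peaks labelled SUUR, 43 (14.2%, 10.7 to 18.6%) overlapped one labelled Cdc45, against 38.7%, and 29.2% on the arms outside. At stage 10, 1 of the 10 peaks labelled SUUR overlapped one labelled Cdc45, against 17.6%. In the other direction it was 1 of 113 (0.885%), against 3.58%. The shares on the arms outside were 6.05 and 3.01% in the same order.

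Few positions were called at both stages. Of the peaks labelled Cdc45 at stages 12-13, 13 of 57 (22.8%, 13.8 to 35.2%) overlapped one of stage 10, against 67.4%, and on the arms outside the window 52.8% did. For IgG it was 3 of 72 (4.17%, 1.43 to 11.5%), against 31.3%, and on the arms outside 8.35%. For peaks labelled SUUR it was 2 of 302 (0.662%, 0.182 to 2.38%), against 6.94%, and on the arms outside 5.38%. The stage 10 lists labelled SUUR and of IgG held only 10 peaks each in the window. This limits how high the shares labelled SUUR and for IgG could be. Counted from stage 10, 2 of 10 peaks labelled SUUR, 13 of 113 labelled Cdc45 (11.5%) and 3 of 10 of IgG overlapped one of stages 12-13, against 16.2, 36.3 and 39.7%. The shares on the arms outside were 8.20, 30.8 and 54.4%. These differences from the lists were not tested.

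The peaks did not fill the window evenly. The fold and the pileup together give the local background the caller derived from the input, as (pileup + 1) / fold - 1, and the lowest value in a list is its genome-wide floor. At stages 12-13 the median peak of the window had a local background of 2.32 times the floor labelled SUUR, 2.16 times labelled Cdc45 and 2.08 times in IgG. At stage 10 it was 1.76, 2.39 and 2.16 times in the same order. On the arms outside the window the median peak lay at the floor in 5 of the 6 lists and at 1.31 times in IgG of stage 10. The 3 lists of a stage share 1 input, so these are 2 independent inputs and not 6.

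In bins of 5 kb, the library labelled SUUR of stages 12-13 had a median local background of at least 1.5 times the floor in 3 stretches. They run from the start of the window to 21410000, from 21415001 to 21440000 and from 21450001 to 21545000. The first rests on 3 peaks, which cover 2.53% of it. The other 2, called here the large blocks, are 25 and 95 kb long and held the summits of 281 of the 302 peaks labelled SUUR, 51 of 57 labelled Cdc45 and 63 of 72 of IgG at stages 12-13, and 5 of 10, 102 of 113 and 10 of 10 at stage 10. The limits were set after the values were seen.

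Within the 2 large blocks the library labelled SUUR of stages 12-13 covered 34.9%, the one labelled Cdc45 3.95% and IgG 3.52%. Coverage labelled SUUR was alike in both, 37.5% of the left and 34.3% of the right block, with 11.8 and 11.7 summits per 5 kb. In the 60 kb of flanking sequence the 3 libraries covered 0.705, 0.405 and 0.585%. The flanks thus had similar low coverage in all 3 libraries.

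A stretch of 10 kb between the blocks, 21440001 to 21450000, stood apart. There the median local background was at or near the floor (1.0 times labelled SUUR, 1.0 times labelled Cdc45 and 1.09 times in IgG at stages 12-13, and 1.0 times labelled Cdc45 at stage 10). Summits labelled SUUR were at 5.5 per 5 kb, against 11.7 in the blocks, and coverage was 10.3%. The library labelled Cdc45 covered 2.91% of the stretch and IgG 1.24%, each from 3 peaks. Part of the coverage labelled SUUR came from peaks at 21440015 to 21440744, beside the left block. Their local background was raised, up to 3.85 times the floor. From 21445001 to 21450000 coverage was 6.18% labelled SUUR, 1.16% labelled Cdc45 and 0.82% in IgG. The library labelled SUUR thus exceeded IgG in coverage here too. Over the whole stretch of 10 kb the median pileups were 11 labelled SUUR, 12 labelled Cdc45 and 6 in IgG. They were lower than the 17, 20 and 10 inside the blocks, while the median fold was similar or higher (3.48, 2.96 and 3.53).

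**Figure D3:**
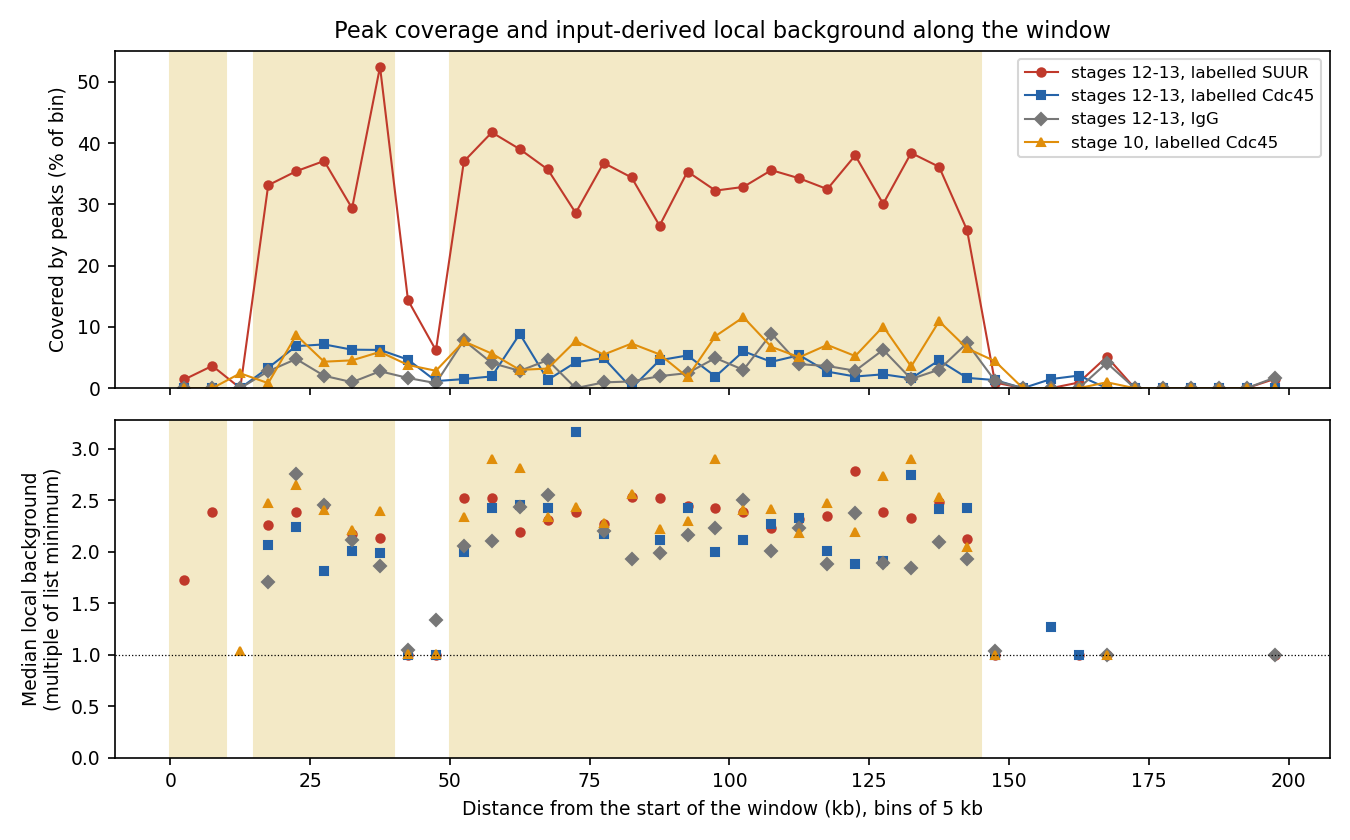
Percent of each 5 kb bin covered by peaks (top) and the median local background of the peaks in the bin as a multiple of the list's minimum (bottom, no point where a bin has no peak), by kb from the start of the window, for the 4 libraries with over 50 peaks. Coverage labelled SUUR at stages 12-13 is 25.8 to 52.4% in bins of the large shaded blocks. It is 1.42 and 3.64% in the small shaded stretch, where the background is also raised. In bins with peaks and a background of 1.0 it is at most 14.4%.

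Pairs of summits about 5 kb apart outnumbered those at 2.5 and 7.5 kb in 3 of the 4 libraries with over 50 peaks. Neighbouring summits were much closer than 5 kb, with a median distance of 321 bp labelled SUUR, 1723 bp labelled Cdc45 and 1364 bp in IgG at stages 12-13, and 964 bp labelled Cdc45 at stage 10, so a unit usually held several peaks. Distances between all pairs of summits were counted next. In the library labelled SUUR 395 pairs lay 5.0 kb apart, within 250 bp, against 301 pairs at 2.5 kb and 293 at 7.5 kb, and 355 lay 10.0 kb apart against 289 at 12.5 kb. In the library labelled Cdc45 of stage 10 there were 70 pairs at 5.0 kb, against 38 and 37 at 2.5 and 7.5 kb. IgG of stages 12-13 had 26 pairs at 5.0 kb, against 6 and 9. The library labelled Cdc45 of stages 12-13 had 11 pairs, against 7 and 11, too few to show an excess.

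Put as a share, 284 of 302 summits labelled SUUR (94.0%, 90.8 to 96.2%) had another summit 5.0 kb away, 22 of 57 labelled Cdc45 (38.6%, 27.1 to 51.6%) and 39 of 72 in IgG (54.2%, 42.7 to 65.2%) at stages 12-13. At a distance of 7.5 kb, 1.5 units, the shares were 79.1, 29.8 and 22.2%, and at 2.5 kb 76.8, 19.3 and 15.3%, so closely packed summits also find partners at distances that are no multiple of the unit. At stage 10 it was 77 of 113 labelled Cdc45 (68.1%, 59.1 to 76.0%), against 46.0% at 7.5 kb, and none of the 10 labelled SUUR or the 10 of IgG. In the upper 50% of each list by p the share was 81.0% labelled SUUR, 0% labelled Cdc45 and 40.9% in IgG at stages 12-13, and 9.52% labelled Cdc45 at stage 10, from fewer summits. Copies of the unit are close to identical in sequence, so tags can be placed in more than 1 copy and peaks in different copies are not independent.

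The ratio of pairs at 5.0 kb to the mean of those at 2.5 and 7.5 kb was 1.33 labelled SUUR at stages 12-13. In the other 5 arm windows of 200 kb with at least 50 summits in that library it was 0.895 to 1.07. For the library labelled Cdc45 the ratio was 1.22 at stages 12-13, with 1 of 17 other windows at or above it, and 1.87 at stage 10, with 1 of 28. For IgG of stages 12-13 it was 3.47, the highest of the 4, and no other window had enough summits.

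Autocorrelation of coverage, the correlation of the covered bases with themselves after a shift, was computed over the array. Over the 130000 bases from the start of the left to the end of the right block, the maximum between 4.5 and 5.5 kb lay at 5.05 kb labelled SUUR (r = 0.229), at 4.82 kb labelled Cdc45 (r = 0.0755) and at 4.84 kb in IgG (r = 0.0753) at stages 12-13. At stage 10 it lay at 5.04 kb labelled Cdc45 (r = 0.0976). The next maximum, searched between 9 and 11 kb, lay at 10.09 kb labelled SUUR and in IgG and at 9.59 kb labelled Cdc45 at stages 12-13, and at 10.08 kb labelled Cdc45 at stage 10. At a shift of 2.5 kb r was between -0.0527 and -0.0282 in these 4 libraries. A maximum searched in a set range always lies in it, so it was set beside the highest r at the other lags from 2.0 kb up. That was 0.0789 labelled SUUR (at 5.55 kb, the edge of the first range), 0.0513 labelled Cdc45 (8.3 kb) and 0.0518 in IgG (5.7 kb) at stages 12-13, and 0.0334 labelled Cdc45 at stage 10 (6.05 kb). At 5.05 kb itself r was -0.0328 labelled Cdc45 and 0.0410 in IgG at stages 12-13, and 0.0937 labelled Cdc45 at stage 10. The library labelled Cdc45 of stages 12-13 thus showed no repeat at the lag of the one labelled SUUR. These r are descriptions over neighbouring bases of 1 library and carry no test.

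In 3 equal parts of the right block, each 31.7 kb long and in order of position, the maximum labelled SUUR in the first range lay at 5.05, 5.07 and 4.85 kb, with r of 0.305, 0.297 and 0.213. In IgG of stages 12-13 the maximum lay at 5.23, 5.08 and 4.84 kb, with r of 0.120, 0.201 and 0.256. The last part thus had a similar lag in IgG and a higher r. Labelled Cdc45 the maximum lay at 4.67, 4.93 and 4.68 kb at stages 12-13, and at 5.03, 5.04 and 5.49 kb at stage 10. A trend along the block was not tested.

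**Figure D4:**
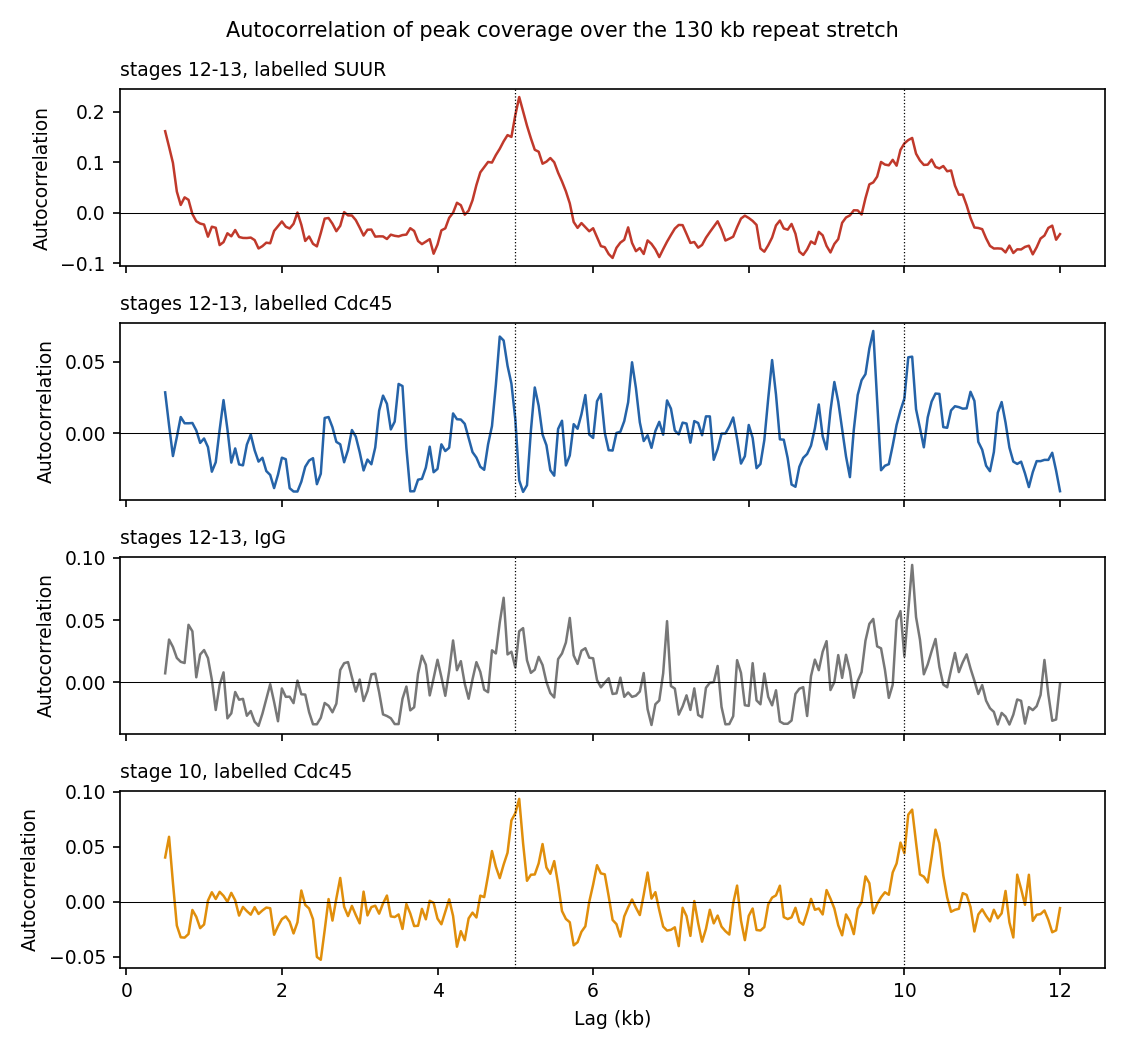
Autocorrelation of peak coverage against lag in kb, for the 4 libraries with over 50 peaks, with dotted lines at 5 and 10 kb and a vertical scale of its own in each panel. The library labelled SUUR of stages 12-13 has its maximum at 5.05 kb with r = 0.229, that labelled Cdc45 of stage 10 has r = 0.0937 there, and that labelled Cdc45 of stages 12-13 is below 0 there.

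Where in the unit the peaks lay was seen by folding 12 units of 5.05 kb, 21450001 to 21510600, on each other, with positions counted from 21450001. The length of 5.05 kb was taken from the library labelled SUUR of stages 12-13 and used for all libraries. In the library labelled SUUR of stages 12-13 the part from 1.262 to 2.272 kb was covered 62.1 to 77.1%, and each of the 12 units had a peak between 1.515 and 1.767 kb. The first 0.505 kb held no such peak in any unit, and 0.265% was covered from 0.505 to 0.757 kb. From 2.777 to 5.05 kb coverage was 25.3 to 36.8%. Coverage of the unit thus had a crest, a plateau and an almost empty part.

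The other libraries had lower coverage throughout the crest, and also over the whole folded unit. Mean coverage of the unit was 34.6% labelled SUUR, 3.70% labelled Cdc45 and 3.51% in IgG at stages 12-13. At stage 10 it was 6.11% labelled Cdc45. The library labelled Cdc45 and IgG of stages 12-13 both had their highest value from 1.262 to 1.515 kb, with 17.9% in 6 units and 16.2% in 7 units. At stage 10 the library labelled Cdc45 had a pair of crests, 20.3% from 1.767 to 2.02 kb and 20.1% from 3.535 to 3.787 kb, in 7 and 10 of the 12 units. Across the 20 positions of the folded unit, the profile labelled SUUR correlated with that labelled Cdc45 (r = 0.703), with IgG (r = 0.581) and with that labelled Cdc45 of stage 10 (r = 0.563). Among the other libraries r was 0.691 between that labelled Cdc45 and IgG of stages 12-13, 0.396 between both labelled Cdc45 and 0.208 between stage 10 labelled Cdc45 and IgG of stages 12-13. These libraries share the underlying sequence, and at stages 12-13 the input. In the first 0.252 kb IgG covered 3.80%, in 3 of 12 units, and the 3 ChIP libraries covered none. The crest cannot be assigned to 1 of the 5 histone genes, because a Release 5 annotation was not used here.

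**Figure D5:**
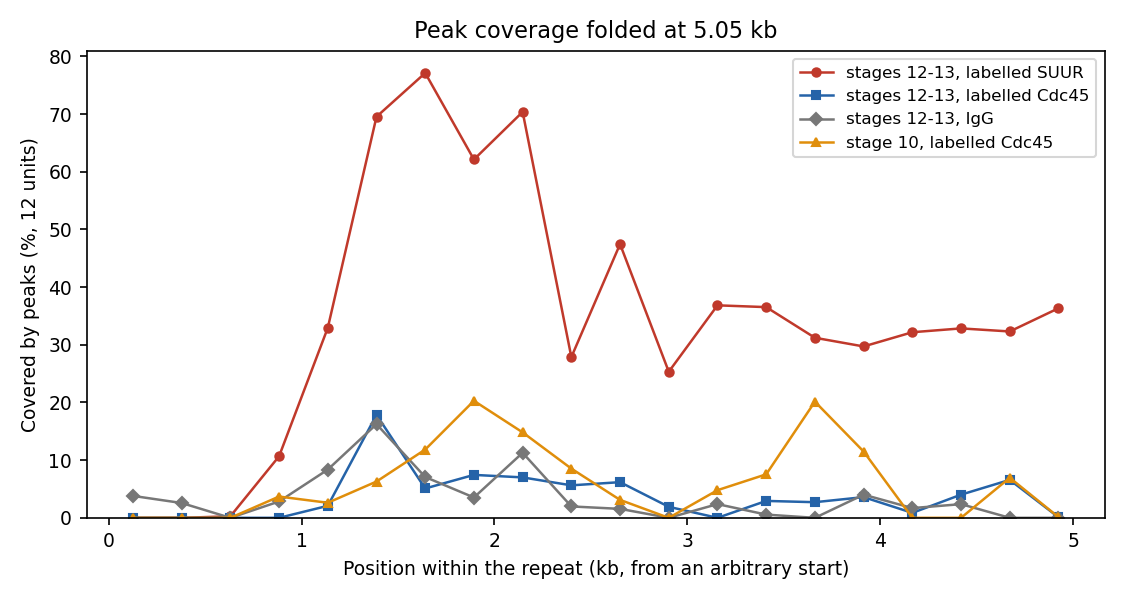
Percent covered by peaks at each position of the repeat unit, averaged over 12 units folded at 5.05 kb, for the 4 libraries with over 50 peaks. The library labelled SUUR of stages 12-13 reaches 77.1% between 1.5 and 1.8 kb and is near 0 in the first 0.8 kb, and the other libraries stay at or under 20.3%.

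Single peaks were described by a rule of the 3 highest and the widest per list. The highest peaks labelled SUUR at stages 12-13 were at 21435144 to 21435304, 21501980 to 21502335 and 21507608 to 21507871, with pileups of 28, 27 and 26 and folds of 3.89, 4.69 and 5.26. The first overlapped no peak of another list, and the other two overlapped an IgG peak. The widest, 692 bp from 21496625 to 21497316, had a pileup of 21, a fold of 2.85 and an IgG peak in it.

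The highest peak labelled Cdc45 was at the same place in both stages. Its summit lay at 21537667 at stages 12-13 (pileup 36, fold 2.54) and at 21537673 at stage 10 (pileup 39, fold 3.40), 6 bp apart, with a peak labelled SUUR but none of IgG over it. The local background there was 4.01 times the floor at stages 12-13, the highest of all 57 peaks, and 4.27 times at stage 10, the second highest of 113. High pileup and high input thus coincided at this site, and the part of the input in it was not tested. The other peaks named labelled Cdc45 at stages 12-13 were at 21418600 to 21418670 and 21432720 to 21432897, each with a pileup of 27, and the widest, at 21492333 to 21492531, with a pileup of 23. At stage 10 they were at 21541069 to 21541122 (pileup 28) and 21496995 to 21497056 (pileup 26), with a local background of 4.10 and 4.61 times the floor, and the widest at 21456900 to 21457133 (pileup 22).

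In IgG of stages 12-13 the highest peaks, at 21521657 to 21521752, 21437858 to 21437900 and 21492476 to 21492557, had pileups of 13, 12 and 12 and folds of 4.66, 4.52 and 4.43, and each overlapped a peak labelled SUUR. Its widest, 217 bp from 21451320, had a pileup of 9. In IgG of stage 10 the highest, at 21478249 to 21478300, 21542134 to 21542213 and 21499809 to 21499889, had pileups of 21, 16 and 16, and the widest, 95 bp from 21450954, had 9. The stage 10 library labelled SUUR had its highest peaks at 21518464 to 21518512 and 21517200 to 21517248, with pileups of 5 each, and at 21545989 to 21546061, with 4. Its widest peak, 91 bp from 21585480, had a pileup of 3 and lay outside the blocks.

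The salivary gland lists had no peak in either large block. The caller's setting there, an effective genome size of 2.7e+09, and its peaks of several kb make these lists unlike those of egg chambers. In the SuUR mutant a gamma-H2Av peak of 9180 bp ran from 21550971 to 21560150, beyond the right block by 5971 bp. It held 1370 tags, with a fold of 8.70, the 11th highest fold among the 205 arm peaks of that list, and 9.33 tags per kb per 1e+06 tags, against a median of 4.10 on the arms outside. OrR gamma-H2Av had no peak there. The OrR IgG peak, 21553155 to 21560144, lay wholly within it, with 651 tags, a fold of 2.78 and 5.70 tags per kb per 1e+06 tags. Of all SuUR gamma-H2Av peaks 35.2% overlapped an OrR IgG peak and 42.6% an OrR gamma-H2Av peak. The shares on the arms outside the window were 28.4% and 37.7%.

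In OrR the gamma-H2Av peak was at the other side of the array, 21393948 to 21406968, with 1886 tags, a fold of 6.54 and 7.54 tags per kb per 1e+06 tags, against a median of 2.69 on the arms outside. It ranked 6 by tags and 103 by fold among 677 arm peaks. Only 6968 of its 13021 bp lay in the window, and its summit, at 21397157, lay below it. An OrR IgG peak of 972 bp with 66 tags and a fold of 2.97, below the window, lay inside it, and 52.4% of all OrR gamma-H2Av peaks overlapped an IgG peak. The share on the arms outside the window was 25.9%. The window part held the 3 peaks labelled SUUR of the first stretch, at 21404205 to 21405836, with pileups of 15, 19 and 21. By covered length the window ranked 57 of 1184 for gamma-H2Av in SuUR, 165 in OrR and 189 for IgG in OrR. SuUR and OrR gamma-H2Av each differ from IgG at 1 peak in 1 library, and SuUR was called against its own input, so strain, input and library cannot be told apart.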

How the data were processed

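Reads were mapped with BWA to dm3, per the submitters' processing notes; how tags that match several copies were placed is not given in the sources used here. Peaks were called per library, with 1 tag kept per position, per the file headers. Gland lists came from MACS 1.4.2 (p limit 1e-05) and give, as deposited, tag counts per peak, a score of 10 times the −log10 p-value, a fold over input and an FDR in percent, which was not used. The lists of egg chambers were made with MACS 2.0.10.20130419 (p limit 1e-03) and give, as deposited, pileup signal, −log10 p-values and a fold ratio over input. Each group is 1 of the series' 13 samples; 4 inputs have no list of their own. A fold or pileup is the authors' own. Computed here with Python 3.11.15, NumPy 2.4.6 and SciPy 1.17.1 were covered lengths, ranks, distances between summits, autocorrelation, overlaps of 1 bp or more with Wilson 95% intervals, and local background. The spacing and overlap steps were tested on simulated data. Named peaks are the 3 highest by pileup or tags and the widest per list. Members and rules were chosen with earlier results of these data known.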

Additional observations from a re-analysis of the deposited data

Results flagged for a closer look

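Stages differed in the sign of ChIP minus IgG, which was not tested, since each value comes from single libraries. Covered length labelled SUUR minus IgG was 38.9 kb at stages 12-13 and -0.065 kb at stage 10. The small negative value turned positive with an equal number of peaks per list (0.29% labelled SUUR and 0.181% for IgG), in the upper 50% of each list (0.118 and 0.066%) and with a fold of at least 3 (0.265 and 0.14%). It stayed negative in the large blocks alone (0.21 and 0.537%). The number of peaks labelled Cdc45 minus that of IgG was -15 at stages 12-13 and 103 at stage 10. Depth relative to IgG moved with the first, 1.86 times at stages 12-13 and 0.0909 times at stage 10, and was 2.68 and 2.12 times for the second. Its part in these differences was not tested.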

How the results depend on the processing

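No paired analysis was possible because each group has 1 library. Of 73 alternatives 32 stayed within the Wilson 95% interval of the reported value, over bases for coverage and over summits for the partner share, and 41 moved out of it. Bases of a peak are not independent, so the interval for coverage is too narrow and small shifts (3.90 against 4.03%) count as moves. Those of the last 2 settings for coverage, the large blocks alone and a fold of at least 3, were chosen after seeing the data. Values below run labelled SUUR, labelled Cdc45 and IgG at stages 12-13, then the same at stage 10. Coverage of the window was 15.0, 0.692, 0.689, 0.118, 0.82 and 0.066% in the upper 50% of each list by p. With equal numbers of peaks it was 15.0, 0.534 and 1.51% at stages 12-13, and 0.29, 0.311 and 0.181% at stage 10, where the list labelled SUUR is the shortest and keeps all its peaks. Without peaks over IgG it was 15.7% labelled SUUR and 1.75% labelled Cdc45 at stages 12-13, 3.90% labelled Cdc45 at stage 10, and 0% for gamma-H2Av in SuUR and OrR. In the large blocks alone it was 34.9, 3.95, 3.52, 0.21, 6.11 and 0.537%, and 0% for the 3 gland lists. With a fold of at least 3 it was 15.9, 0.481, 2.02, 0.265, 1.21 and 0.14%, and 0% for OrR IgG, whose peak was also absent (0%) from the upper 50% of its list. The library labelled Cdc45 of stages 12-13 thus fell below IgG with equal numbers and with the fold limit, and the cause was not tested. The share of summits with a partner 5.0 kb away was 96.4% labelled SUUR, 59.6% labelled Cdc45 and 65.3% in IgG at stages 12-13 and 86.7% labelled Cdc45 at stage 10 with a tolerance of 500 bp. In the upper 50% by p it was 81.0, 0 and 40.9%, and 9.52% labelled Cdc45 at stage 10, where fewer summits remain. It could not be computed there for the stage 10 lists labelled SUUR and IgG, with under 5 summits. At stage 10 coverage labelled SUUR was below IgG as reported and in the large blocks alone, and above it in 3 of these settings (equal numbers, upper 50%, fold limit). Depth differed most from the other libraries in the stage 10 library labelled SUUR, and its part was not tested.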
